A study of Mus musculus with 8 samples.

Results

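The genes described here are 37 genes of endoplasmic reticulum (ER) protein folding and of the unfolded protein response (UPR), measured in pro-B cells with and without menin. They were chosen by symbol, as all probe sets whose platform annotation names 1 of the 37 genes. This gave 86 probe sets of the 45037 on the array, and 37 of the 18193 genes with their own symbol there. The cells were bone marrow pro-B cells of Fraction B (B220+ CD43+ HSA+ BP-1-), an early stage of mouse B-cell development, isolated by sorting. Of 8 mice, 4 were menin-deficient (Rag1-cre;MenF/F) and 4 were controls (MenF/F), at 2 to 3 weeks of age by the sample labels. Both groups carried floxed alleles of Men1, the gene for the chromatin protein menin. Rag1-cre, whose promoter is active in early lymphoid cells, was present in every menin-deficient mouse and in no control, so an effect of Cre and the loss of menin cannot be told apart. Each mouse gave 1 expression array, and the number of arrays limits the precision.

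Proteins that enter the ER are folded by chaperones such as BiP (Hspa5), by the lectin chaperones calnexin and calreticulin, and by protein disulphide isomerases. When unfolded protein accumulates, the sensors IRE1 (Ern1), PERK (Eif2ak3) and ATF6 raise chaperone and degradation genes through the transcription factors XBP1, ATF4 and cleaved ATF6. In the B lineage this response is best known for the expansion of the ER in antibody-secreting plasma cells, where XBP1 is required.

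Some promoters of these genes hold short elements through which the response is known to act, and they are shown because members that share an element had different calls in these data. The ER stress element (ERSE), bound by ATF6 together with NF-Y, was searched as CCAAT and CCACG with 9 bases between them, on both strands, from 250 bases before to 50 bases after the annotated start. RefSeq promoters on GRCm38.p6 were at hand for 31 of the 37 genes. The element was found in 9 of these 31 genes (29.0%), and in 39 of 32851 promoters of the same length in all (0.119%). The members were chosen as genes of this response, so such shares here and below are not a test of the elements. Each match is given with 10 bases on either side, in the direction of the element, with the searched letters in capitals.
Pdia6, chr12:17266481-17266519, plus strand: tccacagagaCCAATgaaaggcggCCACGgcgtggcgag
Creld2, chr15:88819510-88819548, minus strand: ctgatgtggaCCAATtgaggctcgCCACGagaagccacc
Syvn1, chr19:6046522-6046560, plus strand: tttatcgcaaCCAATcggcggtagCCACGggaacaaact
Hspa5, chr2:34772015-34772053, plus strand: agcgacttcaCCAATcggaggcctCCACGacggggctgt
Hsp90b1, chr10:86705628-86705666, minus strand: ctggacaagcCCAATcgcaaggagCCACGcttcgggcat
Hsp90b1, chr10:86705523-86705561, plus strand: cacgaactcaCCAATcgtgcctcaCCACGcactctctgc
Dnajc3, chr14:118937817-118937855, plus strand: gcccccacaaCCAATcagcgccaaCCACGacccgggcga
Calr, chr8:84847065-84847103, plus strand: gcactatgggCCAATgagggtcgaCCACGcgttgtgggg
Canx, chr11:50325790-50325828, minus strand: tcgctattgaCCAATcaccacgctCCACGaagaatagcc
Derl3, chr10:75893232-75893270, minus strand: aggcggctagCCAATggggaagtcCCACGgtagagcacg
Of these 9 genes, Pdia6 and Creld2 were called higher in menin-deficient cells, Syvn1 was called lower, and the other 6 did not pass the threshold (values below). Among all tested genes 16.2% were called higher and 5.17% lower, and a part of the element in the calls was not tested. The shorter ERSE-II, searched as ATTGG and CCACG with 1 base between them, was found in 2 members and in 12 of the 32851 promoters (0.0365%). Neither of these members passed the threshold.
Dnajb11, chr16:22857842-22857872, plus strand: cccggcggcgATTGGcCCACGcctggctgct
Herpud1, chr8:94386367-94386397, plus strand: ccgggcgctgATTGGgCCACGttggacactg
The C/EBP-ATF response element (CARE), at which ATF4 acts, was searched as TGATGNAAN. It was found in 4 members (12.9%) and in 1299 of the 32851 promoters (3.95%). Of the 4, Asns was called higher and the other 3 did not pass on their brightest probe sets, where 16.2% of all tested genes were higher.
Asns, chr6:7693214-7693242, minus strand: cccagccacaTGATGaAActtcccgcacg
Trib3, chr2:152344029-152344057, plus strand: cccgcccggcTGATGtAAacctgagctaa
Chac1, chr2:119351038-119351066, minus strand: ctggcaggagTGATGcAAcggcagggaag
Herpud1, chr8:94386306-94386334, minus strand: gggtgcgggcTGATGcAAcccgccgtggt
No match to the UPR element TGACGTGG lay in a member's window, against 222 promoters in all (0.676%). In all 14 of the 31 members held at least 1 searched element and 17 held none, and matches of different elements did not overlap. The 250 bases before the start are given for Pdia6 (ERSE, called higher), Syvn1 (ERSE, called lower) and Asns (CARE, called higher), with the searched letters in capitals.
Pdia6, chr12:17266339-17266588, plus strand: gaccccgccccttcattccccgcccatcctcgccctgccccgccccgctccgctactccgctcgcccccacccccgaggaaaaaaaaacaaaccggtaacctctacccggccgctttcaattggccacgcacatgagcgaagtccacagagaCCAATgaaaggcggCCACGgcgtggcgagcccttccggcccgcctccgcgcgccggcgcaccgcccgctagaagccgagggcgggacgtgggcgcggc
Syvn1, chr19:6046326-6046575, plus strand: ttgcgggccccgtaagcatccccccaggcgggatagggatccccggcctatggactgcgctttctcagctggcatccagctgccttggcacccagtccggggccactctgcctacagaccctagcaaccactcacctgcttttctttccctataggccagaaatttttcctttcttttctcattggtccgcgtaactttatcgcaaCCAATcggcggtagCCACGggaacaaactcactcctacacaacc
Asns, chr6:7693210-7693459, minus strand: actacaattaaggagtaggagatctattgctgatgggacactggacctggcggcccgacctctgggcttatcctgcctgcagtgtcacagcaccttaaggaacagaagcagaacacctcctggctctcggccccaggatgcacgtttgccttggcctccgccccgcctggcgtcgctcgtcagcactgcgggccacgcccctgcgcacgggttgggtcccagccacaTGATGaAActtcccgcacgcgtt

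The arrays were alike, with medians of 3.29 to 3.50 (deposited log2 values) and correlations over tested genes of 0.991 to 0.996 within groups and 0.985 to 0.991 between groups. Men1 was lower by 1.39 on the log2 scale on its brightest probe set (8.15 ± 0.28 in menin-deficient and 9.54 ± 0.26 in control arrays, SD, n = 4 each, limma adjusted p = 0.00391). Its position relative to the deleted part is unknown here, so it may not check the deletion. Pro-B markers were bright on average in both groups, which does not show that the samples held only pro-B cells. The mean of a list of 12 such markers, Cd79b, Vpreb1, Igll1, Ebf1 and Pax5 among them, was 14.36 to 14.41 in menin-deficient and 14.28 to 14.39 in control arrays. Within that list Dntt (0.35, adjusted p = 0.00442) and Igll1 (0.38, adjusted p = 0.0457) were higher and Rag1 (-0.28, adjusted p = 0.0326) was lower. Some markers of other cells were called, where 16.2% of all tested genes were higher and 5.17% lower. The mean of 9 plasma cell markers was 9.17 to 9.40 in menin-deficient and 9.54 to 9.98 in control arrays. Of 8 tested, 3 were lower: Jchain (-2.85), Sdc1 (-1.16) and Iglv1 (-0.98). The other tested markers did not pass: Prdm1 (0.66), Tnfrsf13b (0.17) and Slamf7 (0.08) lay higher, and Irf4 (-0.12) and Ell2 (-0.35) lower. Tnfrsf17 was near the lowest value of the table on every array. The mean of 10 plasmacytoid dendritic cell markers was 6.78 to 7.09 in menin-deficient and 6.31 to 6.53 in control arrays, with Ccr9 and Irf7 higher (2 of 10 tested) and Tlr9 near the lowest value. Of T cell markers 4 of 5 tested were higher (list mean 5.64 to 5.78 in menin-deficient and 4.75 to 4.91 in control arrays), while Cd3d, Cd3e and Cd4 lay near the lowest value. Of NK cell markers 3 of 7 were higher (6.90 to 7.55 in menin-deficient and 6.16 to 6.50 in control arrays), and of monocyte and macrophage markers 3 of 8 (7.05 to 8.61 in menin-deficient and 7.16 to 7.61 in control arrays). None of 8 granulocyte markers (10.52 to 11.46 in menin-deficient and 10.21 to 10.96 in control arrays) and none of 2 tested erythroid markers passed. The granulocyte markers gave signal in both groups, with group means from 7.85 (Elane, control) to 13.37 (Camp, menin-deficient). Plasma cells and plasmacytoid dendritic cells are rich in ER chaperones; the part of any of these cells in the results was not tested. In such sorted bulk samples, fewer cells of a type and less RNA per cell cannot be told apart.

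The question was whether loss of menin alters these genes in B-cell progenitors. In the deposited values 11 of the 37 members were higher in menin-deficient cells, 3 were lower and 23 did not pass an adjusted p of 0.05. Other probe sets of Atf4 (counted as higher) and Derl1 (counted as lower) point the other way, and without these genes 10 were higher and 2 lower. The largest change was an 8.26-fold rise of Clgn, the calnexin homologue calmegin. The other calls stayed between 1.16-fold and 1.84-fold in size, and the disulphide isomerases Pdia6, Pdia4 and P4hb were among the higher genes. Members called higher made up 29.7% and members called lower 8.11%, against 16.2% higher and 5.17% lower among all 11885 tested genes. The members were chosen with earlier results of these data known, so their shares are not independent of the data. The median difference of the members was 0.08, against 0.11 over all tested genes, and 25 members lay above 0 and 12 below. Over all 37 members the groups did not overlap in 12 that lay higher (32.4%) and 3 that lay lower (8.11%), while 20.3% of tested genes lay higher and 6.06% lower without overlap. Clgn was the only member past 2-fold, against 2.56% of tested genes higher by that much. All 37 members passed the filter on low values on each of the 8 arrays. The filter lay at 2.09 to 2.1, just above the lowest value of 2.08, so passing it says little about expression.

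The share of higher members moved with the scaling. Setting the median tested gene of every array to a common value took 0.125 (log2) off every difference. After it 3 members were higher (8.11%) and 4 lower (10.8%), against 7.67% higher and 8.17% lower over all tested genes, a share near the background. Clgn, Pdia6 and Edem2 remained higher, Syvn1, Dnajb9 and Derl1 remained lower, and Calr became a lower call. The count of higher members was 7 after quantile normalization, 5 after centring on the median of all probe sets, 6 without menin-deficient replicate 2 and 5 without control replicate 4. In the same order, the 44 higher genes of the related lists described below became 28, 18, 24 and 31. The share of all tested genes is not given for these settings, so a loss particular to the members cannot be told from a general one. Changes below are from the deposited values, with the centred difference given for each called member.

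**Figure D1:**
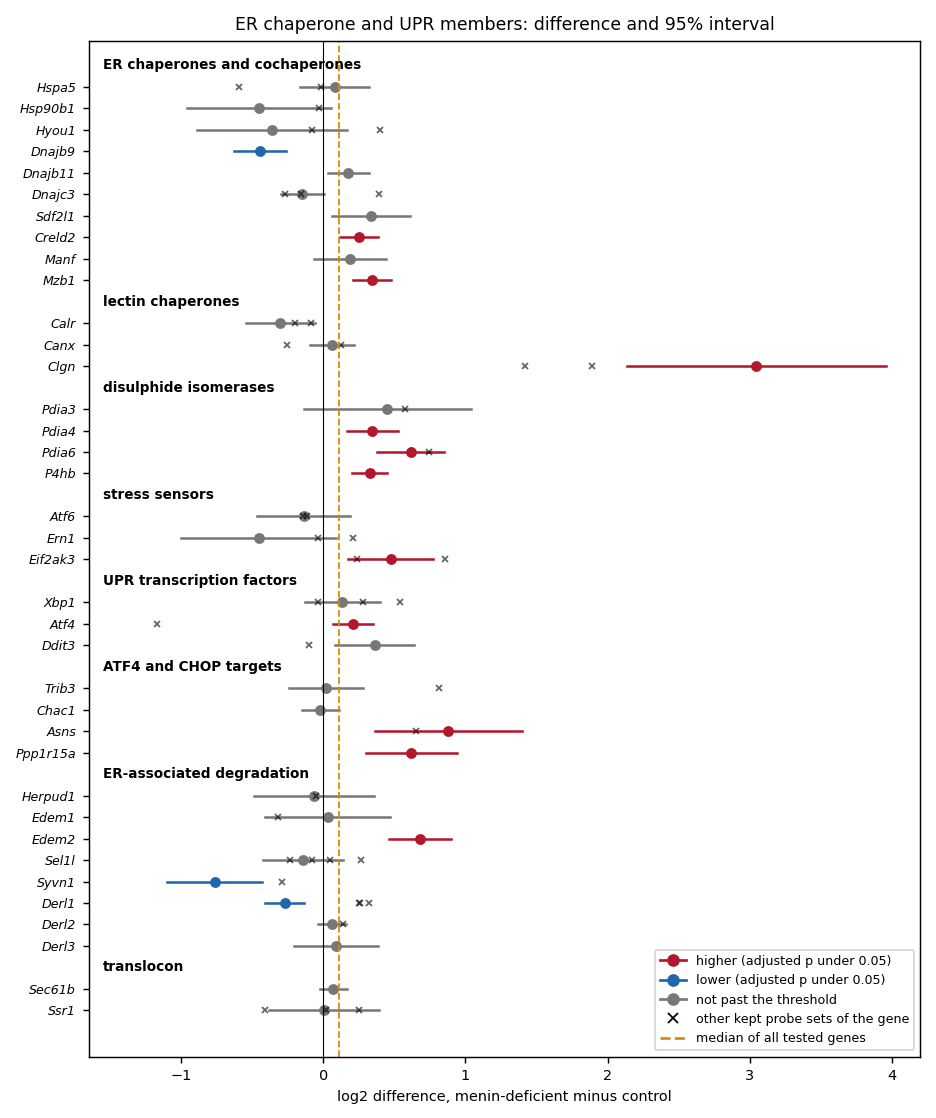
Log2 difference of each of the 37 members between 4 menin-deficient and 4 control arrays, on the brightest probe set of the gene, with its 95% interval (horizontal bars), grouped by role. Crosses mark other kept probe sets and the dashed line the median of all tested genes (0.11). Clgn stands apart at 3.05, and among called members Atf4 and Derl1 have crosses on the far side of 0 from their dot.

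**Figure D2:**
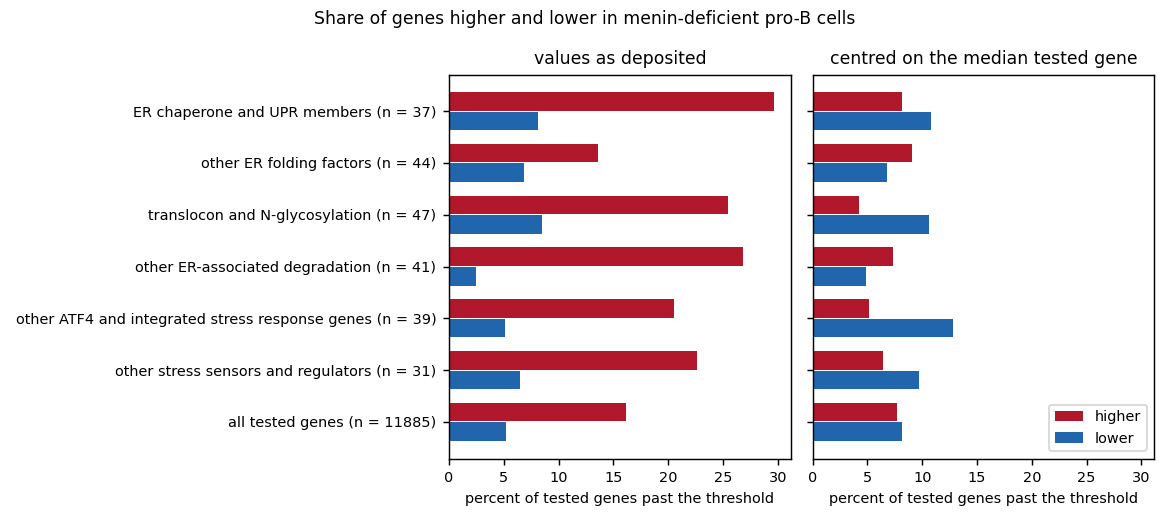
Percent of tested genes higher (red) and lower (blue) at an adjusted p under 0.05 for the 37 members, 5 lists of related genes and all 11885 tested genes. The left panel has the deposited values, where 29.7% of members were higher, and the right panel the values centred on the median tested gene, where 8.11% were.

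Among the 10 luminal chaperones and cochaperones, 2 were higher, 1 lower and 7 did not pass. The shares of all tested genes were 16.2% higher and 5.17% lower, so 2 of 10 higher lay near the background. After centring 0 of these 10 were higher and 1 was lower, against 7.67% and 8.17% of all tested genes. Hspa5 encodes BiP, the central Hsp70 of the ER and the usual read-out of the response. It stood at 15.72, 15.67, 15.36 and 15.67 (log2) in menin-deficient arrays and at 15.62, 15.40, 15.41 and 15.67 in control arrays. The groups overlapped and differed by 0.08 (95% interval -0.17 to 0.32, adjusted p = 0.624). Its other probe sets differed by -0.02 and, on an _x_at set, by -0.60 (adjusted p = 0.110 in the fit of single probe sets). Hsp90b1, encoding the ER Hsp90 GRP94, differed by -0.45 (95% interval -0.96 to 0.06, adjusted p = 0.179) on its brightest probe set and by -0.03 on the other. Without menin-deficient replicate 1, the highest of its group, the difference of Hsp90b1 was -0.64 (adjusted p = 0.0314). The large Hsp70 relative Hyou1 differed by -0.36 (adjusted p = 0.286), and by 0.40 and -0.08 on dimmer sets.

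The J-domain cochaperones of BiP did not move as a block. Dnajb9 (ERdj4), which also holds IRE1 inactive, was at 11.85, 11.79, 11.64 and 11.92 in menin-deficient arrays and at 12.27, 12.36, 12.25 and 12.11 in control arrays. Every menin-deficient array lay below every control array, and Dnajb9 fell by 0.44 (SE 0.08, 1.36-fold, adjusted p = 0.00996; centred -0.57, adjusted p = 0.00737). Dnajb11 (ERdj3) differed by 0.18 (adjusted p = 0.0867) and Dnajc3 (p58IPK), an inhibitor of PERK, by -0.15 (adjusted p = 0.146).

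Mzb1 is a B-cell partner of GRP94 that aids the assembly of IgM. Its values were 14.90, 15.08, 14.95 and 14.92 in menin-deficient arrays against 14.54, 14.62, 14.72 and 14.60 in control arrays. The groups did not overlap, and Mzb1 rose by 0.34 (SE 0.06, 1.27-fold, adjusted p = 0.00916). After centring the difference was 0.22 (adjusted p = 0.0698). Creld2, a stress-inducible luminal protein, held 12.68, 12.55, 12.53 and 12.48 in menin-deficient arrays and 12.37, 12.26, 12.37 and 12.23 in control arrays. Here too the groups did not overlap, and Creld2 rose by 0.25 (SE 0.06, 1.19-fold, adjusted p = 0.0228), with a centred difference of 0.13 (adjusted p = 0.231). The call of Creld2 was lost without menin-deficient replicate 2 (adjusted p = 0.0586), control replicate 2 (0.0513) or control replicate 4 (0.0554), at differences of 0.23 to 0.26. Sdf2l1, which works with the J-domain proteins, differed by 0.34 (adjusted p = 0.0806). It passed without menin-deficient replicate 3, where its difference was 0.44 (adjusted p = 0.0161). The secreted stress protein Manf differed by 0.19 (adjusted p = 0.252).

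**Figure D3:**
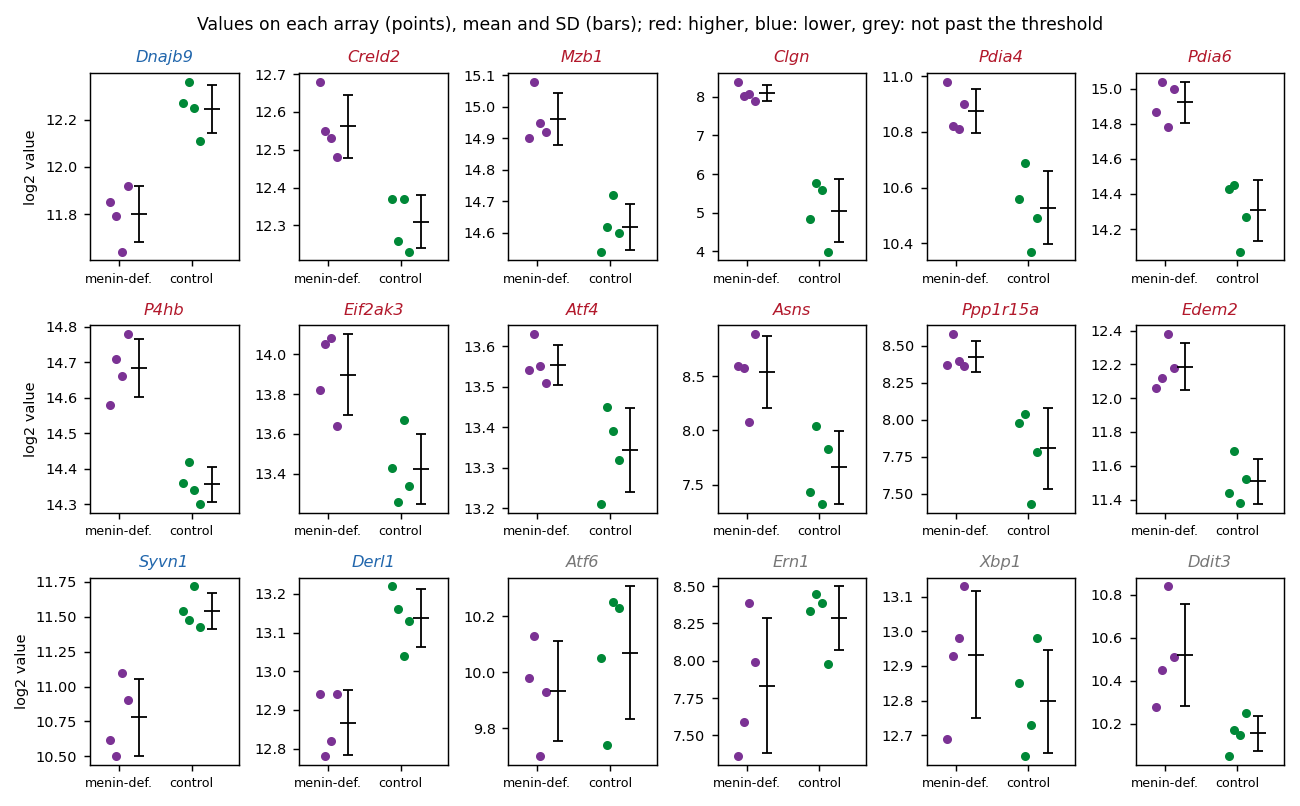
Log2 values on each array (points, 4 menin-deficient arrays left and 4 control arrays right in each panel) with the mean and SD beside them, for the 14 called members and for Atf6, Ern1, Xbp1 and Ddit3. The scale differs between panels. Eif2ak3 is the only called member whose groups overlap, and passing the threshold itself favours groups that do not overlap. Among all tested genes, 20.3% lay higher and 6.06% lower without overlap.

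Of the lectin chaperones, calmegin changed and its relatives calnexin and calreticulin did not pass. Clgn encodes a membrane chaperone best known from mouse testis, where it folds sperm proteins. Its brightest probe set read 8.39, 8.02, 8.07 and 7.90 in menin-deficient arrays and 4.84, 5.78, 5.59 and 3.99 in control arrays. All 4 menin-deficient arrays stood more than 2 log2 units above the highest control array. Clgn rose by 3.05 (SE 0.39, 8.26-fold, 95% interval 2.13 to 3.96, adjusted p = 0.00394; centred 2.92, adjusted p = 0.00254). The other 2 probe sets of Clgn were higher as well, by 1.89 (adjusted p = 0.00528) and 1.42 (adjusted p = 0.0183) in the fit of single probe sets. The control means of 3.53 and 2.66 of those sets were near the table's minimum (2.08), so the folds there are approximate. Canx, encoding calnexin, differed by 0.06 (95% interval -0.09 to 0.22, adjusted p = 0.543). Calr, encoding calreticulin, stood at 13.09, 12.88, 13.00 and 13.04 in menin-deficient arrays and at 13.36, 13.28, 13.53 and 13.05 in control arrays. The groups overlapped through control replicate 4, and Calr differed by -0.30 (adjusted p = 0.0808). The difference was -0.43 after centring (adjusted p = 0.0320) and -0.39 without control replicate 4 (adjusted p = 0.0283).

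Protein disulphide isomerases, which form and rearrange disulphide bonds, had 3 of 4 called higher, against 16.2% of all tested genes, and 1 of 4 after centring. Pdia6 (P5), which also restrains IRE1, was at 14.87, 15.04, 14.78 and 15.00 in menin-deficient arrays and at 14.43, 14.45, 14.07 and 14.27 in control arrays. The groups did not overlap, and Pdia6 rose by 0.62 (SE 0.10, 1.53-fold, adjusted p = 0.00812; centred 0.49, adjusted p = 0.0265). P4hb, the classical isomerase PDI, was at 14.58, 14.71, 14.66 and 14.78 in menin-deficient arrays and at 14.36, 14.42, 14.34 and 14.30 in control arrays. P4hb rose by 0.33 (SE 0.05, 1.26-fold, adjusted p = 0.00756), without overlap, and differed by 0.20 after centring (adjusted p = 0.102). Pdia4 (ERp72) read 10.98, 10.82, 10.81 and 10.90 in menin-deficient arrays and 10.56, 10.69, 10.37 and 10.49 in control arrays. Its groups did not overlap either, and Pdia4 rose by 0.35 (SE 0.08, 1.27-fold, adjusted p = 0.0206), with a centred difference of 0.22 (adjusted p = 0.147). The call of Pdia4 was lost without menin-deficient replicate 4 (0.34, adjusted p = 0.0530) or control replicate 4 (0.33, adjusted p = 0.0535). Pdia3 (ERp57), the isomerase that works with calnexin and calreticulin, differed by 0.45 but with a wide interval (-0.14 to 1.04, adjusted p = 0.241).

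**Figure D4:**
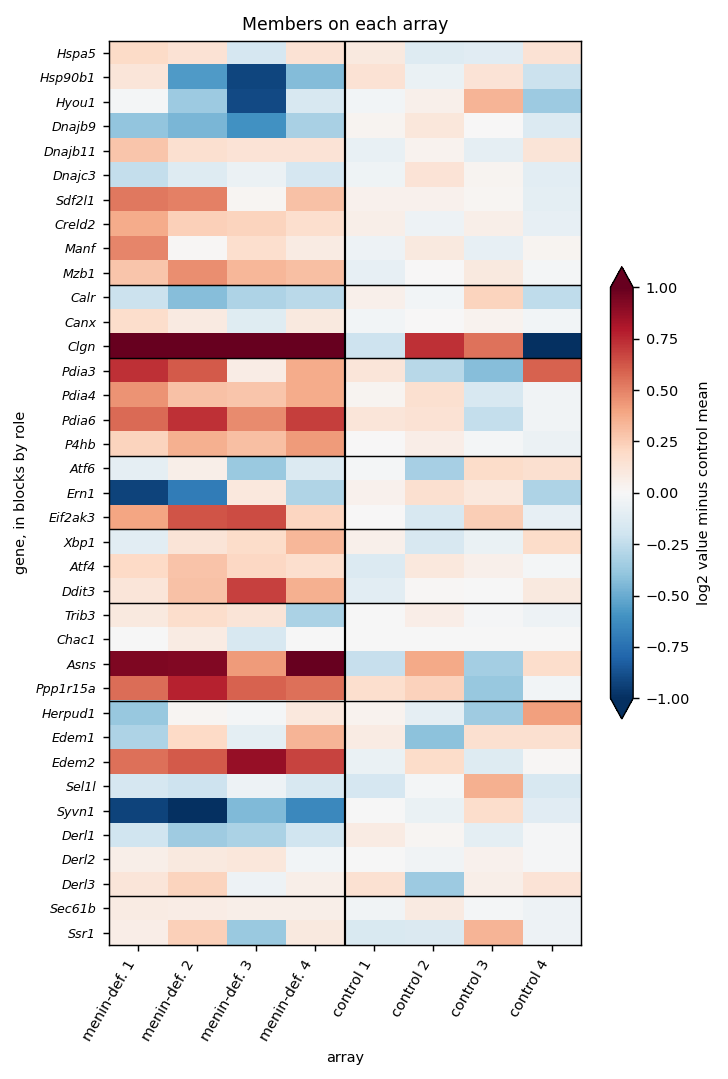
Log2 value of each member on each array minus its mean over the 4 control arrays, in blocks by role from luminal chaperones at the top to the translocon at the bottom, with menin-deficient arrays on the left. Colours are capped at 1 in either direction. Clgn, Asns, Ppp1r15a, Edem2 and Pdia6 are red on all 4 menin-deficient arrays, and Syvn1 and Dnajb9 are blue on them.

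Of the sensors, PERK was called higher and IRE1 and ATF6 did not pass. Eif2ak3 encodes PERK, the kinase that phosphorylates eIF2alpha under ER stress. It read 13.82, 14.05, 14.08 and 13.64 in menin-deficient arrays against 13.43, 13.26, 13.67 and 13.34 in control arrays. Menin-deficient replicate 4 lay just below control replicate 3, so the groups overlapped, and Eif2ak3 rose by 0.47 (SE 0.13, 1.39-fold, adjusted p = 0.0385; centred 0.35, adjusted p = 0.0781). The call was lost without any of menin-deficient replicates 1, 2 and 3 or control replicates 1, 2 and 4, at differences of 0.41 to 0.50 (adjusted p = 0.0622 to 0.102). Ern1, encoding IRE1, was at 7.36, 7.59, 8.39 and 7.99 in menin-deficient arrays and at 8.33, 8.45, 8.39 and 7.98 in control arrays. Menin-deficient replicates 1 and 2 were lower than the rest, and the groups overlapped (-0.45, SE 0.23, adjusted p = 0.204). Atf6, which encodes the sensor cleaved in the Golgi, was at 9.98, 10.13, 9.70 and 9.93 in menin-deficient arrays and at 10.05, 9.74, 10.25 and 10.23 in control arrays. Its groups overlapped as well (-0.14, 95% interval -0.47 to 0.19, adjusted p = 0.517).

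Of the transcription factors, Atf4 passed on its brightest probe set and was lower on another. Atf4 stood at 13.54, 13.63, 13.55 and 13.51 in menin-deficient arrays and at 13.21, 13.45, 13.39 and 13.32 in control arrays on that probe set. It rose by 0.21 (SE 0.06, 1.16-fold, adjusted p = 0.0456), without overlap, and differed by 0.09 after centring (adjusted p = 0.447). The call was lost without any of the 4 menin-deficient arrays or control replicates 1, 3 and 4 (differences of 0.17 to 0.23, adjusted p = 0.0599 to 0.115). An _x_at probe set of Atf4, a kind that can match several transcripts, held 11.79, 11.08, 11.21 and 10.81 in menin-deficient and 12.34, 12.62, 12.28 and 12.32 in control arrays. That is the opposite direction (-1.17, adjusted p = 0.0147 in the fit of single probe sets). In the same fit the brightest Atf4 set did not pass (adjusted p = 0.0593). The mean of both probe sets was lower too (-0.48, adjusted p = 0.0296). A direction for Atf4 can therefore not be given from these probe sets.

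Xbp1, the factor whose mRNA IRE1 splices, was at 12.69, 12.93, 12.98 and 13.13 in menin-deficient arrays and at 12.85, 12.64, 12.73 and 12.98 in control arrays. The groups overlapped, and the difference was 0.13 (95% interval -0.13 to 0.40, adjusted p = 0.432). A second Xbp1 probe set lay higher in every menin-deficient array, at 11.95, 12.18, 12.04 and 12.32 against 11.71, 11.23, 11.48 and 11.92 in control arrays, but did not pass (0.54, adjusted p = 0.0651). Spliced and unspliced Xbp1 mRNA were not told apart. Ddit3, encoding the pro-apoptotic factor CHOP, was at 10.28, 10.45, 10.84 and 10.51 in menin-deficient arrays and at 10.05, 10.17, 10.15 and 10.25 in control arrays. No array of Ddit3 overlapped with the other group, but the difference of 0.36 did not pass (adjusted p = 0.0684). It passed without menin-deficient replicate 1 (0.44, adjusted p = 0.0375), and the other Ddit3 probe set differed by -0.10.

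Of 4 targets of ATF4 and CHOP, Asns and Ppp1r15a were called higher, where 16.2% of all tested genes were higher. After centring 0 of these 4 were higher, against 7.67% of all tested genes. Asns encodes asparagine synthetase, an amino acid response gene whose promoter holds the CARE match given above. It read 8.59, 8.58, 8.08 and 8.89 in menin-deficient arrays and 7.43, 8.04, 7.32 and 7.83 in control arrays. Menin-deficient replicate 3 was just above control replicate 2, and Asns rose by 0.88 (SE 0.22, 1.84-fold, adjusted p = 0.0308). The centred difference was 0.76 (adjusted p = 0.0554). The call was lost without any of menin-deficient replicates 1, 2 and 4 or control replicates 1, 3 and 4, at differences of 0.76 to 0.94 (adjusted p = 0.0547 to 0.0811). The second probe set of Asns was higher by 0.65 (adjusted p = 0.00804 in the fit of single probe sets). Ppp1r15a encodes GADD34, which directs the dephosphorylation of eIF2alpha. It stood at 8.37, 8.58, 8.40 and 8.36 in menin-deficient arrays and at 7.98, 8.04, 7.43 and 7.78 in control arrays. The groups did not overlap, and Ppp1r15a rose by 0.62 (SE 0.14, 1.54-fold, adjusted p = 0.0207; centred 0.49, adjusted p = 0.0566). That call was lost without menin-deficient replicate 2 (0.57, adjusted p = 0.0612) or control replicate 4 (0.61, adjusted p = 0.0531).

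Trib3, a pseudokinase that dampens ATF4 and CHOP, gave split probe sets. The brightest, an _x_at set, differed by 0.02 (adjusted p = 0.929). The other held 9.19, 9.49, 9.31 and 8.97 in menin-deficient arrays and 8.58, 8.12, 8.66 and 8.35 in control arrays. On it every menin-deficient array was above every control array, with a difference of 0.82 (adjusted p = 0.0178 in the fit of single probe sets). Chac1, a glutathione-degrading enzyme and sensitive CHOP-pathway target, stayed at 3.86 to 4.10 in menin-deficient arrays and at 4.02 in all 4 control arrays, so it carried little signal (-0.02, adjusted p = 0.836).

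**Figure D5:**
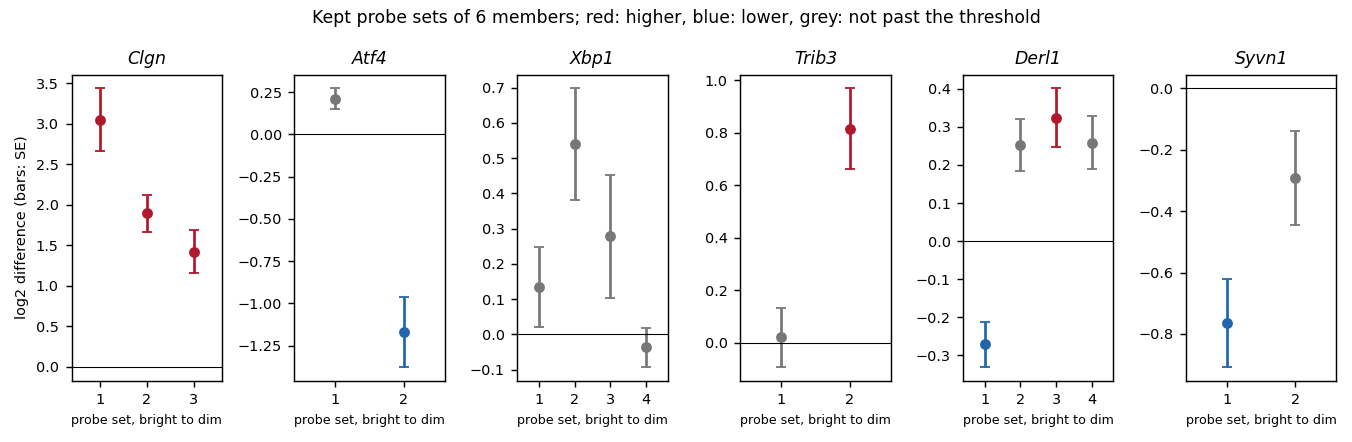
Log2 difference, menin-deficient minus control, of each kept probe set of 6 members, from bright to dim within a gene, with its SE. Red and blue mark sets called higher and lower in the fit of single probe sets. The sets of Clgn share a direction, the 2 sets of Atf4 point in opposite directions, and in Derl1 the brightest set is alone below 0.

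Genes of ER-associated degradation, which exports misfolded proteins to the proteasome, had 1 of 8 called higher (12.5%, against 16.2% of all tested genes). Another 2 were called lower (25.0%, against 5.17% of all tested genes) and 5 did not pass the threshold. Of the lower calls, that of Derl1 depended on the probe set. Edem2 starts the trimming of mannose from misfolded glycoproteins. It was at 12.06, 12.12, 12.38 and 12.18 in menin-deficient arrays and at 11.44, 11.69, 11.38 and 11.52 in control arrays. The groups were clearly apart, and Edem2 rose by 0.68 (SE 0.09, 1.60-fold, adjusted p = 0.00493; centred 0.55, adjusted p = 0.00983). Its relative Edem1 differed by 0.03 (95% interval -0.41 to 0.47, adjusted p = 0.941). On its second probe set Edem1 was at 9.98, 10.22, 10.36 and 9.88 in menin-deficient arrays and at 10.42, 10.39, 10.47 and 10.45 in control arrays. There the groups did not overlap, but the difference of -0.32 did not pass (adjusted p = 0.0872 in the fit of single probe sets).

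The central ubiquitin ligase of the pathway, HRD1, is encoded by Syvn1. Its brightest probe set read 10.62, 10.50, 11.10 and 10.90 in menin-deficient arrays and 11.54, 11.48, 11.72 and 11.43 in control arrays. Every menin-deficient array was below every control array, and Syvn1 fell by 0.76 (SE 0.14, 1.70-fold, adjusted p = 0.0123; centred -0.89, adjusted p = 0.00455). That probe set is an _s_at set, which can match several transcripts. The other Syvn1 probe set did not pass on its own (-0.29, adjusted p = 0.251), and menin-deficient replicates 3 and 4 overlapped with control arrays there. Sel1l, the partner of HRD1, differed by -0.14 (95% interval -0.43 to 0.14, adjusted p = 0.432).

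Derl1, a derlin of the export channel, was at 12.94, 12.78, 12.82 and 12.94 in menin-deficient arrays and at 13.22, 13.16, 13.04 and 13.13 in control arrays on its brightest probe set, an _s_at set. There it was lower by 0.27 (SE 0.06, 1.21-fold, adjusted p = 0.0191; centred -0.40, adjusted p = 0.0140). The call was lost without menin-deficient replicate 2 (-0.24, adjusted p = 0.0523) or control replicate 1 (-0.24, adjusted p = 0.0506). The other 3 probe sets of Derl1 lay the other way. The brighter plain set among them, at 11.38, 11.43, 11.42 and 11.55 in menin-deficient arrays and 11.19, 11.13, 10.93 and 11.24 in control arrays, was higher by 0.32 (adjusted p = 0.0361 in the fit of single probe sets). The remaining sets differed by 0.25 and 0.26 (adjusted p = 0.0502 and 0.0510), so no direction can be given for Derl1. Derl2 differed by 0.06 (adjusted p = 0.359) and Derl3 by 0.09 (adjusted p = 0.653). Herpud1, which joins HRD1 to the derlins and holds both an ERSE-II and a CARE match, differed by -0.07 (95% interval -0.49 to 0.35, adjusted p = 0.828). The translocon members differed by 0.07 (Sec61b, a channel subunit, 95% interval -0.03 to 0.17, adjusted p = 0.261) and 0.01 (Ssr1, 95% interval -0.38 to 0.39), and neither passed.

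Of the 80 kept probe sets of the members, tested on their own among 26790, 14 were higher (17.5%) and 4 were lower (5%), against 9.34% and 4.87% of all kept probe sets. Derl1 was the only member with calls in both directions in that fit. Sets of 1 gene were counted separately, with 3 of Clgn and 2 of Asns among the higher. The higher count was 8 without menin-deficient replicate 2 and 9 without control replicate 1, and the lower count was 2 without control replicate 1. Centred on the median tested gene, 7 sets were higher and 6 lower. The share of all kept probe sets is not given for that setting. Clgn, Pdia6 and Edem2 were past the threshold under all 19 alternative settings run for single genes, and the other 11 called members each lost their call or turned under at least 1 of them. Dnajb9 lost it under 1 (a replicate block) and Syvn1 under 1 (without _x_at and _s_at probe sets).

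The rest of the pathway was examined as 5 lists of 202 tested genes. In the deposited values 44 were higher (21.8%) and 12 lower (5.94%), against 16.2% and 5.17% of all tested genes. After centring 13 were higher (6.44%) and 18 lower (8.91%), near the 7.67% and 8.17% of all tested genes. Without menin-deficient replicate 2 the higher count was 24 and without control replicate 1 it was 29. The lists were picked from knowledge of the pathway, but with earlier results of these data known. Their shares are therefore not independent of the data.

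Among other ER folding factors, 6 of 44 were higher (13.6%) and 3 lower (6.82%), against 16.2% and 5.17% of all tested genes. Centred values gave 4 higher (9.09%) and 3 lower (6.82%), against 7.67% and 8.17%. The median difference was 0.15 before centring. Tmx1, a membrane-bound relative of PDI, had 14.37, 14.48, 14.40 and 14.45 in menin-deficient arrays and 14.84, 14.87, 14.85 and 14.75 in control arrays. The arrays of each group were close together, and Tmx1 fell by 0.40 (1.32-fold, adjusted p = 0.00260). Ppic, the prolyl isomerase cyclophilin C, rose 2.21-fold (adjusted p = 0.00456), and Mcfd2, a cofactor of the ER cargo receptor LMAN1, 1.47-fold (adjusted p = 0.00464). Sdf4, a calcium-binding protein of the secretory pathway, rose 1.18-fold (adjusted p = 0.0111), but the call was lost after centring (0.11, adjusted p = 0.255), with -0.01 and 0.43 on its remaining sets.

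Among translocon and N-glycosylation genes 12 of 47 were higher (25.5%) and 4 lower (8.51%), against 16.2% and 5.17% of all tested genes. Centred values gave 2 higher (4.26%) and 5 lower (10.6%), against 7.67% and 8.17%. The median difference was 0.11 before centring. Alg14, which anchors an early glycosyltransferase of the lipid-linked sugar, rose 1.35-fold (adjusted p = 0.00684) and differed by 0.13 on its other probe set (adjusted p = 0.315 in the fit of single probe sets). Sec11c, a signal peptidase subunit, fell by 0.53 (adjusted p = 0.00874), while its other probe set differed by -0.06. Sec61a1, the channel itself, was lower by 0.36 on its brightest probe set (adjusted p = 0.0127) and higher by 0.39 on another (adjusted p = 0.0283 in the fit of single probe sets). Srp14, a subunit of the signal recognition particle, was lower by 0.72 on an _x_at set (adjusted p = 0.00643) and differed by 0.15 without such sets (adjusted p = 0.0732).

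Among other degradation genes 11 of 41 were higher (26.8%) and 1 was lower (2.44%), against 16.2% and 5.17% of all tested genes. Centred values gave 3 higher (7.32%) and 2 lower (4.88%), against 7.67% and 8.17%. The median difference was 0.18 before centring. The ER-membrane ubiquitin ligases Trim13 and Rnf5 rose 1.74-fold (adjusted p = 0.00201) and 1.54-fold (adjusted p = 0.00230). Rnf5 had 12.61, 12.75, 12.69 and 12.65 in menin-deficient arrays and 11.92, 12.05, 12.03 and 12.19 in control arrays, without overlap. Nsfl1c, the p97 cofactor p47, rose 1.30-fold (adjusted p = 0.00493), with a centred difference of 0.25 (adjusted p = 0.0592). Fam8a1, a component of the HRD1 complex, fell by 0.55 (adjusted p = 0.00685) on its brightest probe set and differed by 0.10 on the other.

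Among other genes of ATF4 and the integrated stress response 8 of 39 were higher (20.5%) and 2 lower (5.13%). The shares of all tested genes were 16.2% and 5.17%. Centred values gave 2 higher (5.13%) and 5 lower (12.8%), against 7.67% and 8.17%. The median difference was 0.00 before centring. Pck2, the mitochondrial PEP carboxykinase, had 13.02, 13.07, 13.33 and 13.01 in menin-deficient arrays and 12.21, 12.34, 12.44 and 12.27 in control arrays. The groups did not overlap, and Pck2 rose 1.74-fold (adjusted p = 0.00260). Cth, an enzyme of cysteine synthesis, rose 1.54-fold (adjusted p = 0.00440). Yars, a tRNA synthetase, and Psph, an enzyme of serine synthesis, rose 1.35-fold and 1.26-fold (adjusted p = 0.00950 and 0.0109), calls that were lost after centring (adjusted p = 0.0658 and 0.0772). Among other sensors and regulators 7 of 31 were higher (22.6%) and 2 lower (6.45%), against 16.2% and 5.17% of all tested genes. Centred values gave 2 higher (6.45%) and 3 lower (9.68%), against 7.67% and 8.17%. The median difference was 0.16 before centring. Dab2ip, a scaffold that binds IRE1, rose 2.13-fold (adjusted p = 0.00232) on its brightest probe set and differed by 0.12 on the other. The pro-apoptotic Bak1 fell by 0.85 (1.80-fold, adjusted p = 0.00610). Eif2b4 and Eif2b1, subunits of the exchange factor that phosphorylated eIF2 inhibits, rose 1.23-fold and 1.24-fold (adjusted p = 0.00688 and 0.0136), calls lost after centring (adjusted p = 0.140 and 0.129).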

How the data were processed

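RNA from the sorted pro-B cells was amplified, labelled with biotin and hybridised to mouse expression arrays, per the labels' protocols. The authors deposited normalized log2 values for 8 arrays, between 2.08 and 17.4, a span from which the log2 scale was inferred. Of MAS5 and GCRMA, both in the submitters' processing notes, it is not stated which made them. Between 36.1% and 36.7% of probe sets sat at each array's lowest value, so low values are compressed.

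Groups came from the sample titles, and the labels describe biological replicates. Control probe sets of the manufacturer (64) were left out. Of the others, 34945 have 1 gene symbol in the platform annotation, 932 several and 9160 none. Entrez identifiers matched 34741 to RefSeq (GRCm38.p6), with no symbol changed. A probe set was kept if 4 or more of the 8 arrays had it above their own 40th percentile (26790), and the brightest represented its gene (11885).

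The groups were compared in limma 3.58.1 by lmFit followed by eBayes (R 4.3.3 and the package data.table), with Benjamini-Hochberg adjustment over all tested genes and a threshold of 0.05. A second limma fit took all 26790 kept probe sets singly, adjusted over them, and alternatives were adjusted over the genes each tested. The fit was tested on simulated data. All members and, in each list, up to 4 past the threshold with the lowest p are named. Members and lists were chosen with earlier results of these data known. Same-numbered arrays were not treated as pairs, since the titles give only replicate numbers. Their deviations from group means correlated at -0.107, -0.313, -0.171 and 0.0459, which cannot exclude a weak pairing. Alternatives were other normalizations, filters, probe-set rules, variance models, array weights, a replicate block, a threshold of 0.10 and leaving out each array. Tables and plots used Python 3.11.15 and matplotlib 3.10.9. Promoters are from RefSeq.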

Additional observations from a re-analysis of the deposited data

Results flagged for a closer look

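A single array stood apart from the other 3 in 7 of 116 groups (58 genes, each examined in both groups). Chance alone gives about 1 in 20 groups, so the count lay near that rate. Hspa5 was 15.36 in menin-deficient replicate 3, against 15.67 to 15.72 in the others. Trib3 was 9.06 in menin-deficient replicate 4, against 9.47 to 9.55. Pck2 was 13.33 in menin-deficient replicate 3, against 13.01 to 13.07. Sdf2l1 was 11.83 in control replicate 4, against 11.95 to 11.97. Edem1 was 11.49 in control replicate 2, against 11.98 to 12.06, and Fam8a1 was 13.27 in that array, against 13.49 to 13.52. Chac1 was 4.02 in control replicate 1, as in the other control arrays to 2 decimals, so that mark carries no weight.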

How the results depend on the processing

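Under 20 alternatives the members called higher numbered 3 to 14 (11 as reported) and those called lower 1 to 4 (3). Higher members numbered 7 after quantile normalization, 5 after centring on the median of all probe sets and 3 after centring on the median tested gene; the 44 higher genes of the related lists became 28, 18 and 13. Higher probe sets of members (14) numbered 8 and 7 after these centrings and 9 without a filter. Without _x_at and _s_at probe sets 1 member and 1 member probe set were lower, Derl1 was higher by 0.32 and Srp14 by 0.15. With the mean of probe sets Atf4 was -0.48, Derl1 0.14, and 6 list genes were lower. With the replicate block 8 members were higher and 1 lower, 22 and 5 list genes, and 4 and 1 member probe sets. By the titles the blocked arrays share only a number, and a weak pairing was not excluded. Leaving out each array gave 5 to 10 higher and 2 to 4 lower members, 24 to 39 and 10 to 13 list genes, and 8 to 15 and 2 to 5 probe sets. The causes were not tested. The share of all tested genes called is given only for the deposited values and for centring on the median tested gene. Background correction was not run, since the values are already summarised.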

Other observations

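Syvn1 is a neighbour of Men1 in the RefSeq annotation, with 20 protein-coding genes between them, and is the only member within 10 Mb of Men1 or Rag1. Of 16 tested genes between Syvn1 and Men1, 6 were higher and 3 lower in menin-deficient cells, against 16.2% and 5.17% of all tested genes. Both groups carried floxed Men1.

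Menin-deficient replicate 3 had the highest mean of the NK cell markers (7.55), of the monocyte and macrophage markers (8.61) and of the granulocyte markers (11.46) among the arrays. The part of those markers in the members' values was not tested.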
